A study of Mus musculus with 2 samples.

Results

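The genes that encode pore-forming and accessory subunits of voltage-gated and related cation channels were examined by chromatin accessibility in motor neuron progenitors of the mouse. A gene belonged to the set if it was protein-coding in the GENCODE annotation of mm10 and its symbol began with Kcn, Scn or Cacn followed by a subunit letter or digit. Only the name was used in this choice. This gave 134 of 21938 protein-coding genes, of which 94 were potassium channel genes (Kcn), 14 sodium channel genes (Scn) and 26 calcium channel genes (Cacn). Together they held 880 of the 119502 accessible intervals.

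The assay was ATAC-seq, where the transposase Tn5 cuts and tags open DNA. Live cells of the mouse embryonic stem cell line Olig2-mKate2, which carries a red fluorescent reporter for the progenitor gene Olig2, were sorted for mKate2 at day 5 of neural differentiation, in 1 group of 2 replicates. Both replicates had received 100 nM SAG, which activates the Shh pathway, and 100 nM retinoic acid (RA), and 50000 cells entered each reaction. The study's text states that cells sorted by this reporter also hold new motor neurons and some cells positive for both OLIG2 and NKX2.2, so the values are those of a mixture from a single line.

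Channels of these families let potassium, sodium or calcium ions cross the cell membrane. Sodium channels of the Nav type carry the upstroke of the action potential, potassium channels of the Kv type end it, and calcium channels of the Cav type couple it to transmitter release and to gene expression. Inward rectifier (Kcnj) and K2P (Kcnk) potassium channels set the resting potential and are used by glia and progenitors as well as by neurons.

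The replicates held 31876165 and 31672240 fragment counts in intervals. The transcription start site (TSS) of Olig2 lay in an interval with 946 ± 23.2 normalised counts per kb (SD, n = 2), and those of Nkx6-1 and Sox2 with 1452 ± 27.3 and 862 ± 25.8. Of the progenitor markers, 4 of 4 had an interval at their gene start, with Pax6 lowest at 187 ± 3.57. Of the motor neuron markers 4 of 5 had one, from 299.9 ± 12.2 (Slc18a3) to 1087 ± 36.9 (Isl1), while Chat had none. Of 3 stem cell markers, Pou5f1 and Nanog had none and Zfp42 had 237 ± 4.87. Of 4 fibroblast markers, Col1a1 and Postn had none, while Col1a2 and Thy1 had 123 ± 8.76 and 248 ± 1.83. An accessible promoter does not show that a cell type was present, and the part of any other cells in the channel values was not tested.

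Promoters were examined first. A TSS interval, meaning one that overlapped the first base of the gene, was found for 89 of the 134 channel genes (66.4%), against 61.5% of all protein-coding genes. The mean normalised count of this interval was over 100 in 83 genes (61.9%), against 58.7% of all genes. Genes with several promoters are counted low by this rule. An interval at the start of any protein-coding transcript was found for 109 channel genes (81.3%), against 66.7%, and one within 1 kb of the gene start for 106 (79.1%), against 67.8%.

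The promoters that were accessible were less so than those of most genes. The promoter density, in normalised counts per kb of TSS interval, had a median of 475 over the 89 channel genes in replicate 1 and 487 in replicate 2. Over the 13500 protein-coding genes with a TSS interval it was 897 and 870. The means were 481 ± 8.19 and 883 ± 19.2 (SD, n = 2), a ratio of 0.545 ± 0.0211. Of the 89 channel genes, 12 (13.5%) lay above the median of all genes. Their TSS intervals were longer, with a median of 1468 bp against 1237 bp, and counted per interval the ratio was 0.659 ± 0.00383. Genes are not independent replicates, so these medians are descriptions of the 2 libraries.

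Of the sets compared, the genes of neurotransmitter receptors were closest. A TSS interval was found for 48 of 73 receptor genes (65.8%), with a median density of 501 ± 16.7 (SD, n = 2). Other cation channel genes, among them the Trp, Hcn, Asic, Ryr and P2rx families, had one in 45 of 72 (62.5%) and a median of 772 ± 43.03. The channel medians were 475 and 487 in the libraries, those of the receptors 513 and 489, and those of the other cation channels 742 and 803.

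**Figure D1:**
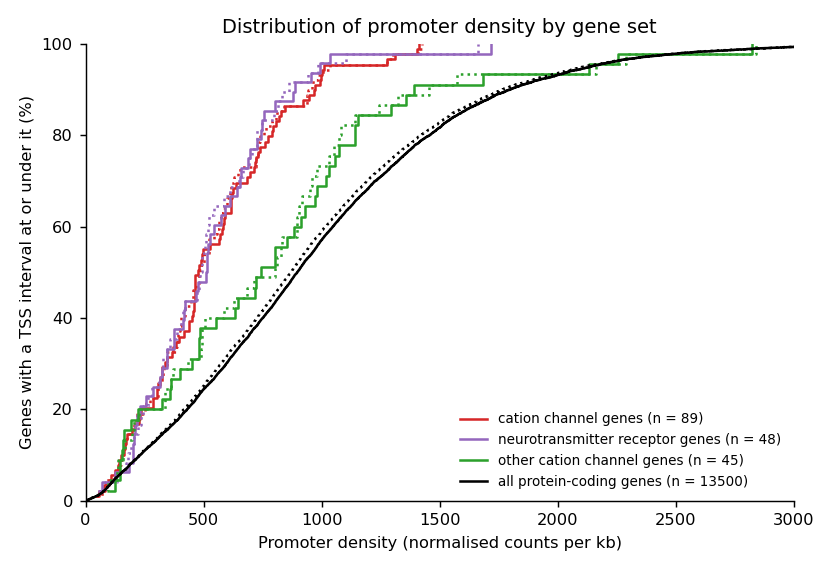
Cumulative share of genes (y axis, percent of genes with a TSS interval) against promoter density (x axis, normalised counts per kb) for 4 gene sets, with solid lines for replicate 1 and dotted lines for replicate 2. The curves of cation channel and receptor genes run together to the left of the curve of all genes, with medians of 481 and 501 against 883.

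By family, the gene start was accessible as follows, without a test between families. Kv pore subunits had a TSS interval in 33 of 40 genes (82.5%) and Nav beta subunits in 4 of 4, but Nav pore subunits in 4 of 10 (40.0%) and Cav pore subunits in 5 of 10 (50.0%). Calcium- and sodium-activated potassium channels had one in 8 of 12, inward rectifiers in 10 of 15, K2P channels in 9 of 14, Kv accessory subunits in 7 of 13, Cav alpha2delta subunits in 3 of 4, Cav gamma subunits in 5 of 8 and Cav beta subunits in 1 of 4. Counted at any protein-coding start, the order changed, with 4 of 4 Cav beta, 8 of 10 Cav pore and 6 of 10 Nav pore genes against 37 of 40 Kv pore genes. Family medians lay between 425 ± 26.7 (inward rectifiers) and 844 ± 1.63 (Cav beta, a single gene), and each was under the median of all genes. Median values of neighbouring families in this order were often closer than the spread between libraries. Kv accessory and Cav gamma subunits had 475 ± 16.1 and 478 ± 13.1.

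**Figure D2:**
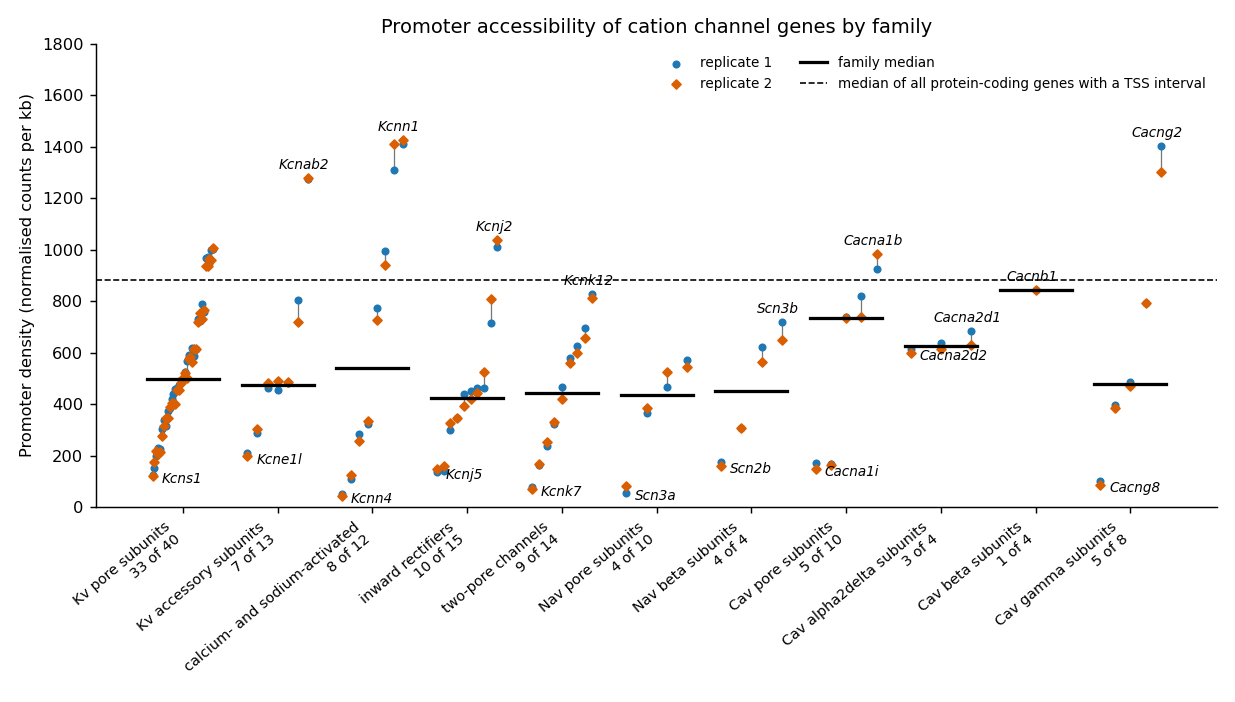
Promoter density (y axis, normalised counts per kb) of each of the 89 channel genes with a TSS interval, by family (x axis, with the number of genes that had one), with a circle for replicate 1, a diamond for replicate 2, a bar for the family median and a dashed line for the median of all protein-coding genes with a TSS interval. Most genes lie under the dashed line at 883, and the highest are Kcnn1, Kcnt2, Cacng2 and Kcnab2.

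Among the Kv pore subunits, which form the delayed rectifier, A-type and M-type potassium currents, the lowest density was 122 (Kcns1). Kcnc1 encodes a fast Kv3 channel of rapidly firing neurons. Its promoter held 1636 counts in replicate 1 and 1588 in replicate 2, or 967 and 938 per kb, and lay above the median of all genes in both libraries.

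Kcnh2, which encodes the ERG channel known from the heart and also present in neurons, had 999 and 959 normalised counts per kb. Kcnb2, a delayed rectifier subunit, had 947 and 965. Kcna2, a Kv1 subunit of axons, had 581 and 584. The M-current gene Kcnq3 had 526 and 521. Kcnd2, an A-type subunit of dendrites, had 336 and 314. The values of Kcnq3, Kcna2 and Kcnd2 lay under the median of all genes, and those of Kcnh2 and Kcnb2 above it.

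Among Kv accessory subunits, Kcnab2, a cytoplasmic beta subunit of Kv1 channels, stood highest, with 2102 and 2109 counts or 1276 and 1279 per kb. Kcne1l was lowest with 203 ± 9.11 (SD, n = 2). Kcnip2, a calcium-binding partner of the Kv4 channels, had 473 ± 13.1.

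Calcium- and sodium-activated potassium channels held some of the densest promoters and also the lowest. Kcnn1 encodes a small-conductance calcium-activated channel that shapes the afterhyperpolarisation. Its TSS interval held 4431 and 4479 counts, or 1411 and 1425 per kb. The gene lies on chromosome 8, where TSS intervals had a median density 1.44 ± 0.0136 times that of the other autosomes (SD, n = 2), and the part of this in its value was not tested. Kcnt2, a sodium-activated channel, had 1311 and 1410.1 per kb, and Cacng2, described with the calcium channel genes, had 1403 and 1302, so the 3 genes were not ordered beyond the spread. Kcnn3 had 994 and 941 and Kcnn2 had 285 and 256, with a mean of 881 over all its protein-coding starts. Kcnn4, the intermediate-conductance channel known from blood cells and epithelia, had 38 and 32 counts, or 50.7 and 42.6 per kb.

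Of the inward rectifiers, Kcnj2, which sets the resting potential of many excitable cells, was highest with 1010 and 1036 per kb, and Kcnj5 was lowest with 137 and 149. Kcnj10, the potassium channel by which glia buffer potassium, had 462 and 525 at its promoter. Kcnj6, a channel opened by G proteins, had 347 in both. Of the K2P channels, Kcnk12 had 829 and 811, Kcnk1 had 697 and 655, and Kcnk7 had 78.9 and 68.9. Kcnk1 is the other chromosome 8 gene with a TSS interval.

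The sodium channel genes gave low values. The pore subunit Scn1a, which drives firing in inhibitory neurons, had 466 and 525 per kb (264 over all its protein-coding starts). Scn3a, the pore subunit best known from the embryonic brain, had an interval of 42 and 62 counts, or 56.3 and 82.96 per kb, which was not ordered against Kcnk7 beyond the spread. Among the beta subunits, which anchor and modulate the pore, Scn3b had 717 and 648, and Scn2b 174 and 160.3.

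Of the calcium channel genes, Cacna1b, the N-type pore subunit of nerve terminals, had 1609 and 1718 counts, or 923 and 985 per kb. The T-type genes Cacna1h and Cacna1g had 820 and 739, and 737 and 733, whereas the third T-type gene, Cacna1i, had 173 and 148. Cacna1e, the R-type gene, had 167 and 165, and a mean of 344 at the start of its protein-coding transcript. Cacna1i and Cacna1e thus lay apart from the other 3 Cav pore genes with a TSS interval by several times the spread between libraries. Cacna1d, without a TSS interval, had 172 ± 15.5 (SD, n = 2) at a start inside the gene. The alpha2delta genes, whose products bring channels to the membrane, were close to each other, from 608 ± 11.2 (Cacna2d2) to 656 ± 40.2 (Cacna2d1; SD, n = 2 each). Cacng2 encodes stargazin, an auxiliary subunit of AMPA receptors, and had 1403 and 1302 per kb, while its relative Cacng8 had 101 and 87.0. The beta subunit Cacnb1 had 845 and 843.

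The remaining 45 genes had no interval at the gene start. For 20 of them an interval lay at the start of another annotated protein-coding transcript, and 23 of the 25 intervals at these starts had a mean normalised count over 100. Their densities ran from 63.0 to 1041 with a median of 576. Kcna1, the Kv1.1 subunit of axons, had such an interval 1.33 kb into the gene with 2259 and 2356 counts, or 1020 and 1063 per kb. Cacnb2 had its densest at 1.42 kb with 988 and 1027 per kb, and others of 102 and 63.0. Cacna1a, the P/Q-type pore subunit, had one 26.7 kb into the gene with 908 and 834 per kb, and it too lies on chromosome 8. Cacnb4 had one at 0.95 kb with 568 and 602 and a weaker one of 140, and Scn8a, the Nav1.6 channel of the axon initial segment, had one at 1.30 kb with 674 and 613.

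Promoters deep inside long genes followed the same pattern. Cacna1c, an L-type pore subunit, had 643 and 610 per kb at a start 88.0 kb into the gene, and a weaker one of 73.5 at 116 kb. Cacna1d, the other L-type gene of neurons, had 183 and 161 at 138 kb. Kcnma1, the large-conductance calcium-activated channel, had 513 and 465 at 10.1 kb, and Scn2a had 577 and 575 at 47.9 kb. In each of these genes the first annotated base lay outside the accessible interval.

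For 25 channel genes (18.7%) no interval lay at any protein-coding start, against 33.3% of all genes. They were Cacna1f, Cacna1s, Cacna2d4, Cacng1, Cacng6, Kcna10, Kcng4, Kcnv2, Kcne2, Kcne4, Kcnrg, Kcnmb3, Kcnu1, Kcnj1, Kcnj9, Kcnj14, Kcnj15, Kcnj16, Kcnk9, Kcnk16, Kcnk18, Scn4a, Scn7a, Scn10a and Scn11a, a list fixed by the count itself and not by the naming rule. As background, Cacna1s, Cacng1, Cacng6 and Scn4a serve skeletal muscle, Cacna1f and Cacna2d4 the retina, Scn10a and Scn11a pain-sensing neurons, Kcnj1 the kidney and Kcnu1 sperm. The roles of the others, among them Kcnj9, Kcnj14, Kcnj16 and Kcnk9, are not given here. These examples therefore do not describe the list as a whole. The distance from the gene start to the nearest interval had a median of 4.87 kb, and 3 of the 25 had an interval within 1 kb. A gene body interval was present in 16 of them, and 17 of their 54 such intervals had a mean normalised count over 100.

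The sequence of the promoters was compared next, in RefSeq windows of the assembly GRCm38.p6 that run from 250 bases before a start to 50 bases after it. A window was at hand for 99 of the 134 channel genes and for 16522 protein-coding genes. The RefSeq start lay over 1 kb from the GENCODE gene start in 11 of the 99. The observed over expected ratio of CpG dinucleotides had a median of 0.438 over the channel genes and 0.602 over all genes. Among genes with a TSS interval the medians were 0.582 for 65 channel genes and 0.765 for all genes. For the 19 channel genes with a window and no interval at any start the median was 0.204, against 0.167 for all genes of that kind. Some windows of genes with a TSS interval lay outside it, as in Kcnip4 and Kcnj12. In the central 300 bases of TSS intervals the medians were nearer, 0.704 for the 89 of channel genes and 0.796 for all. Median GC content of the windows was 59.7% for channel genes and 57% for all. Channel promoters were thus poorer in CpG, both over all windows and, by a smaller gap in the intervals themselves, among accessible ones. Among genes without a TSS interval the order was the reverse, with window medians of 0.331 for channel genes and 0.192 for all. The part of CpG content in the lower density of channel promoters was not tested.

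The range is shown by 6 windows of named genes, each on the strand of its gene, 5′ to 3′, with CpG dinucleotides in capitals. Kcnn1 (chr8:70863209-70863508, minus strand) had one of the densest promoters, Cacna1b (chr2:24763103-24763402, minus strand) and Cacna2d1 (chr5:15934441-15934740, plus strand) are CpG-rich with 35 and 42 CpGs, Kcnj10 (chr1:172340960-172341259, plus strand) lies between, Kcnn4 (chr7:24370013-24370312, plus strand) had the lowest density and Scn2a (chr2:65620519-65620818, plus strand) had no interval at this start. The window of Kcnn1 held 13 CpGs, that of Kcnj10 21, that of Kcnn4 6 and that of Scn2a 3.
Kcnn1: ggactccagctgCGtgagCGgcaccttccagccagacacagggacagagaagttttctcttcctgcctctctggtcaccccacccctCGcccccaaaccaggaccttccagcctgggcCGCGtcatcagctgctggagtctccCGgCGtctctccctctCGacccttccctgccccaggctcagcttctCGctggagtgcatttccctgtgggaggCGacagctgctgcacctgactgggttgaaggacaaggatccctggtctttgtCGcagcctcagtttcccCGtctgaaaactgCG
Cacna1b: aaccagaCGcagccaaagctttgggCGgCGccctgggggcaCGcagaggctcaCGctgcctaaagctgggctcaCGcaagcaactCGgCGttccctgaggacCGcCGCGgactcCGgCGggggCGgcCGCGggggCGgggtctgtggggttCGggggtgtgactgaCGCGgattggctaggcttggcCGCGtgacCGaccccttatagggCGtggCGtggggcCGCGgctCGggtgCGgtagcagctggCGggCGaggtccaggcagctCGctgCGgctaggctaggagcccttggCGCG
Cacna2d1: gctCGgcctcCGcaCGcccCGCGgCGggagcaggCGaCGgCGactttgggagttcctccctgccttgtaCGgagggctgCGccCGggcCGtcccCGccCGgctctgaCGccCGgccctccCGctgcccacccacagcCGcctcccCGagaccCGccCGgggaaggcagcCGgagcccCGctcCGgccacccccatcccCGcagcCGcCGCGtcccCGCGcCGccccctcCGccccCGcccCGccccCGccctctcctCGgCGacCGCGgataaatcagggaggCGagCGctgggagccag
Kcnj10: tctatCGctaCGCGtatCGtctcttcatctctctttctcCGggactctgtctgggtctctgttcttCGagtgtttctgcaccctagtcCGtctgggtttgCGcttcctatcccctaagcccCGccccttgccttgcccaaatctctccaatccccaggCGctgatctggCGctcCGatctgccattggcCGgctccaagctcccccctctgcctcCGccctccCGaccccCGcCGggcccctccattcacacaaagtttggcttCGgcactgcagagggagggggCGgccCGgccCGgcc
Kcnn4: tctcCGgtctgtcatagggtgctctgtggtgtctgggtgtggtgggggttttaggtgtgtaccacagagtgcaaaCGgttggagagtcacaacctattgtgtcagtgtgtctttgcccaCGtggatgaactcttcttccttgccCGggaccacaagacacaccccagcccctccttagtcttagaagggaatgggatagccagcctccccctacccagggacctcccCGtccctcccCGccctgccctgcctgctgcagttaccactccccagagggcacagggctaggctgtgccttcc
Scn2a: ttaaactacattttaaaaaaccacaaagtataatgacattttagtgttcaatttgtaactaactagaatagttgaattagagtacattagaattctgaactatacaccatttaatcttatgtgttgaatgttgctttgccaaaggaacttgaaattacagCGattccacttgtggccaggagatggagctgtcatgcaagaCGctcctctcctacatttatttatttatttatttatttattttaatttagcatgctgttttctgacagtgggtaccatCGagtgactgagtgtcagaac

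Of these examples, Kcnn4 and Scn2a had the fewest CpGs, and the lowest density (46.7 per kb) and no interval at this start, respectively. The order of the others by CpG was not their order by density. The Kcnn1 window had an observed over expected ratio of 0.462 and a promoter of 1418 per kb, on chromosome 8. That of Cacna2d1 had 0.922 and 656. The windows were picked as examples, and the relation was not tested. In the windows, on either strand, the E-box CAGCTG was found in 27 of 99 channel genes (27.3%), against 15.2% of all genes, and CAGATG in 17 (17.2%) against 14.5%. In the central 300 bases of TSS intervals CAGCTG was nearer to the background, in 17 of 89 (19.1%) against 16.4%. The homeodomain core TAATTA was found in 0 of 99, against 4.60% of all genes and 2.20% of those with a TSS interval. In the central bases of TSS intervals it was found in 2 of 89 (2.25%) against 1.38%. The order against the background thus differed between the 2 measures, and no test was made. The Sox core ATTGTT was found in 6 of the 99 windows (6.06%) against 9.30%. Matches of so short a motif are descriptions of the letters and not of binding.

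Inside the genes, 791 intervals lay away from the first base of any protein-coding gene, though 37 of them overlapped another protein-coding transcript start. At least 1 was found in 110 of 134 channel genes (82.1%), against 54.9% of all protein-coding genes. Channel genes are long, with a median of 42.5 kb against 17.4 kb. Per 100 kb of gene they held 4.79 such intervals, against 5.51 over all genes, where an interval in overlapping genes counts for each. With intervals that lay in no other protein-coding gene, the rates were nearer, at 4.75 against 5.13. In genes under 20 kb the rate was 10.4 against 5.88, from 20 to 100 kb it was 7.03 against 5.89, and over 100 kb it was 4.25 against 5.25. The order of channel genes against all genes therefore turned with gene length, and so did that of both comparison sets. In the same classes, receptor genes had 8.47, 6.08 and 2.75, and other cation channel genes 6.61, 8.24 and 3.98. Over 100 kb, the channel genes were also longer than all genes, with a median of 269 kb against 168 kb. Over all lengths, the rate was 6.59 in calcium, 4.09 in potassium and 3.54 in sodium channel genes, and 3.11 in receptor genes.

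**Figure D3:**
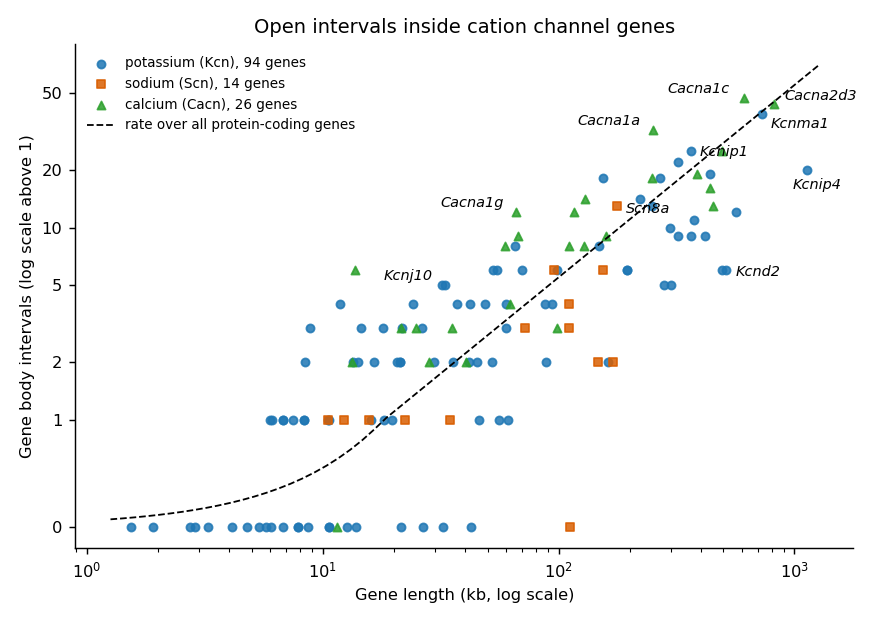
Number of gene body intervals (y axis, log scale above 1) against gene length in kb (x axis, log scale) for the 134 channel genes, with circles for potassium, squares for sodium and triangles for calcium channel genes and a dashed line at the rate of 5.51 per 100 kb over all protein-coding genes. Cacna1c, Cacna1a and Cacna1g lie above the line, and Kcnip4 and Kcnd2 lie below it.

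The most gene body intervals were found in Cacna1c (47), Cacna2d3 (44), Kcnma1 (39), Cacna1a (32) and Cacna1e (25, as in Kcnip1). Among genes of at least 20 kb the highest rates were those of Cacna1g with 18.2 per 100 kb, Kcnip2 with 16.5, Kcnh2 with 15.6, Kcnj10 with 15.2 and Cacnb1 with 13.9. Kcnd2 held 6 in 514 kb, or 1.17 per 100 kb. Kcnip4 was the longest at 1135 kb and held 20, or 1.76 per 100 kb.

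The gene body intervals of channel genes had densities close to those of all genes. Their median density was 122 in replicate 1 and 132 in replicate 2, against 122 and 126 over all genes, or 127 ± 6.99 and 124 ± 2.24 (SD, n = 2), a difference smaller than the spread between libraries. The mean normalised count was over 100 in 256 of 791 (32.4%), against 32.7% of all gene body intervals. Introns held 636 (80.4%), against 75.7%, and coding exons 119 (15.0%), against 16.7%. With the gene length cut into 5 equal parts, each part held between 18.6% and 22.4% of them, against 16.7% to 23.3% over all genes.

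In the gene bodies, 5 intervals were denser than any of the 89 promoters. One of the 2 densest lay in an intron of Cacna2d1, at chr5:16002411-16003075, 68.1 kb from the gene start, with 1396 and 1394 counts or 2100.1 and 2095 per kb. Another intron interval of this gene, at chr5:15985249-15986409, had 2122 and 2121 counts or 1828 and 1826 per kb. Both exceeded the Cacna2d1 promoter, at 685 and 628, by far more than the spread. The Kcnj10 gene held the other, an intron interval at chr1:172349885-172351016, 9.24 kb from the start, of 2206 and 2484 counts or 1950 and 2193 per kb. The libraries put it and the first Cacna2d1 interval in opposite order, within the spread.

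Coding exons near gene ends also ranked high. An interval over a coding exon of Kcnh2, at chr5:24321994-24322972, had 1827 and 1838 per kb, and one at the far end of Cacna1a, at chr8:84638591-84639929, had 1556 and 1581. Cacna1a and Kcnn1 lie on chromosome 8, where TSS intervals were denser, and the part of this in the ranking was not tested. Further intervals among the 10 densest were in Kcnn3 (1295 ± 7.81), Kcnn2 (1255 ± 13.0), Kcnma1 (1206 ± 21.0) and Cacnb2 (1146 ± 17.1; SD, n = 2 each). The Kcnn2 interval lay at the start of another annotated transcript of that gene.

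**Figure D4:**
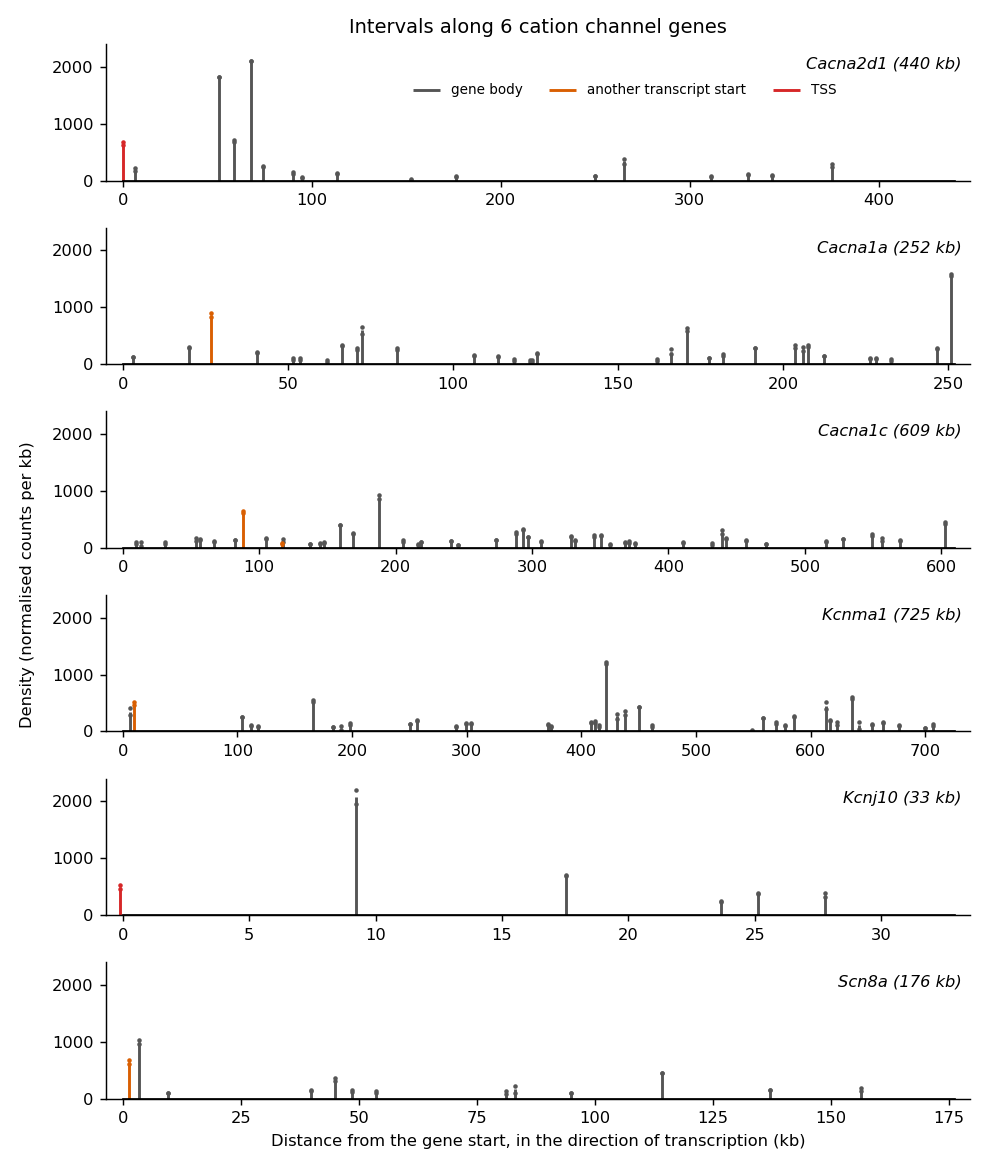
Density of each interval (y axis, normalised counts per kb) against its distance from the gene start in kb (x axis) along 6 channel genes, where a line gives the mean, dots the replicates and colour marks TSS intervals, other transcript starts and gene body intervals. In Cacna2d1 and Kcnj10 an intron interval of 2098 and 2072 stands above the TSS interval, and in Cacna1a, Cacna1c, Kcnma1 and Scn8a the open start lies inside the gene.

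Of 74 channel genes with both kinds of interval, 23 (31.1%) had a gene body interval denser than the promoter, against 20.7% of all 8685 such genes and 39.0% of 41 receptor genes. The largest ratios were those of Cacng8, with 837 in a coding exon against 94.1 at the promoter, Kcnn4, with 342 against 46.7, Kcnn2, with 1255 against 271, and Kcnj10, with 2072 against 494. Gene body intervals at another transcript start, such as that of Kcnn2, were included.

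The central bases of 3 of the dense intron intervals are shown, from GRCm38.p6 on the plus strand, with matches to the E-boxes, the homeodomain core and the Sox core on either strand in capitals. They show where such letters fall in the most accessible elements of Cacna2d1 (chr5:16002594-16002893), Kcnj10 (chr1:172350301-172350600) and Cacnb2 (chr2:14608637-14608914, the whole interval). The Cacna2d1 stretch held 1 E-box of the form CAGCTG and 1 Sox core. That of Kcnj10 held 1 E-box of the form CAGATG, and that of Cacnb2 held 2 E-boxes of the first form and 1 Sox core. Among member gene body intervals, CAGCTG was found in the central 300 bases (fewer in shorter intervals) of 24.0%, against 23.6% over all genes, and the Sox core in 18.7% against 17.4%.
Cacna2d1: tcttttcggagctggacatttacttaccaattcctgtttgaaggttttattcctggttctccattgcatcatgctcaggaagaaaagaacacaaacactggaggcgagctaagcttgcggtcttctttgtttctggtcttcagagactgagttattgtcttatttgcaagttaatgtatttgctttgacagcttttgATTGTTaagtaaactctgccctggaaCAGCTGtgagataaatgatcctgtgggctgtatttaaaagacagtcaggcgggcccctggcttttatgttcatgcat
Kcnj10: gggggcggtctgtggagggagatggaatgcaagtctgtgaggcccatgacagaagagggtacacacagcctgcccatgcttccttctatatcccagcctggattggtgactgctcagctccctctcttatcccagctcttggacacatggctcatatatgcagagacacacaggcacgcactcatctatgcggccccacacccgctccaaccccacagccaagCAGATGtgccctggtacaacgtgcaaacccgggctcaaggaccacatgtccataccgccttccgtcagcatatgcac
Cacnb2: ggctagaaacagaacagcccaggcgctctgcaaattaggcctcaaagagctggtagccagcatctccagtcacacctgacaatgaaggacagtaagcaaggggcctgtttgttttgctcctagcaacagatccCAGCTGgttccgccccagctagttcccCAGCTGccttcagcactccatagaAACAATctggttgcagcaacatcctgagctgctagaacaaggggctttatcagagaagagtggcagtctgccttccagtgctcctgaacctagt

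Matches to RE1 were also counted. RE1 is the element bound by REST, a repressor known to keep channel and other neuronal genes down outside neurons. It was searched on both strands as TTCAGCACC, a gap of 2 bases and GGACAG, with at most 2 mismatches in the 15 letters. A match was found in 5 of 89 channel TSS intervals (5.62%), against 1.57% of all TSS intervals, and in 18 of 791 gene body intervals (2.28%), against 0.694% of all. In the central 300 bases a match was found in 1 of 89 TSS intervals (1.12%) against 0.311%, and in 13 of 791 gene body intervals (1.64%) against 0.421%. The promoter windows held it in 0 of 99 channel genes, against 0.169% of all. No test was made of these differences, and REST binding was not measured.

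The 23 matches lay in 19 genes of all 11 families. Of these, 4 matched every letter, 11 had 1 mismatch and 8 had 2. The 4 complete matches and the 4 matches in TSS intervals with 1 mismatch are printed on their own strand, with the letters that matched in capitals and the gap and any mismatch in lower case. They were chosen by their match.
Cacna1h: TTCAGCACCacGGACAG
Kcnab2: TTCAGCACCcaGGACAG
Kcnh4: TTCAGCACCctGGACAG
Scn10a: TTCAGCACCacGGACAG
Cacna1b: gTCAGCACCacGGACAG
Kcnk12: gTCAGCACCgcGGACAG
Kcnt1: cTCAGCACCgcGGACAG
Scn3b: cTCAGCACCacGGACAG

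Among the complete matches, that of Scn10a lay at chr9:119706902-119706918, in an intron interval of 179 and 193 counts or 715 ± 37.7 per kb (SD, n = 2), 12.5 kb into a gene with no open start. That of Cacna1h, at chr17:25400638-25400654, lay in an intron interval of 154 and 147 counts, that of Kcnab2, at chr4:152424543-152424559, in an exon interval of 68 and 63 counts, and that of Kcnh4, at chr11:100759011-100759027, in its TSS interval of 600 and 554 counts. The sites at Cacna1b, Kcnk12, Kcnt1 and Scn3b lay in TSS intervals of 954, 820, 329 and 683 per kb, so a match was present at promoters from the lower to the upper part of the range. The whole Scn10a interval (chr9:119706740-119706999) is given with the RE1 match, which reads on the minus strand, and 1 CAGCTG in capitals.
Scn10a: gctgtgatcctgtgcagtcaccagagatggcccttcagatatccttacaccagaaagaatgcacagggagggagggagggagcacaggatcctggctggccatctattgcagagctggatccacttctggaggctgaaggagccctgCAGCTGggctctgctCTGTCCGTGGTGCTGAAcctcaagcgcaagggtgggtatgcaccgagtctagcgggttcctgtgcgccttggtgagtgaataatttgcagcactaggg

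The replicates were then compared over the channel intervals. An exact binomial test (two-sided, on each pair of counts) with Benjamini-Hochberg adjustment over all 119502 intervals called 0 of the 880 at a limit of 0.01, against 0% of all, and 77 (8.75%) had an unadjusted p under 0.05, against 8.39% of all. Of the 89 at a TSS it was 12 (13.5%), against 13.6% of all TSS intervals. With edgeR TMM factors 6 intervals were called over the whole table and 0 of them were in channel genes. The lowest adjusted p among the 880, 0.102, was that of the dense Kcnj10 intron interval. Where the mean normalised count was over 100, the SD of the log2 ratio was 0.14 over 339 channel intervals, and 0.10 over the 83 at a TSS. The largest differences were in introns of Cacna1a (124 and 81 counts, log2 ratio -0.61, adjusted p = 0.299), Cacna1c (141 and 99 counts, -0.51, adjusted p = 0.374) and Scn8a (90 and 128 counts, 0.50, adjusted p = 0.431). This exact test compares the libraries and not conditions.

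**Figure D5:**
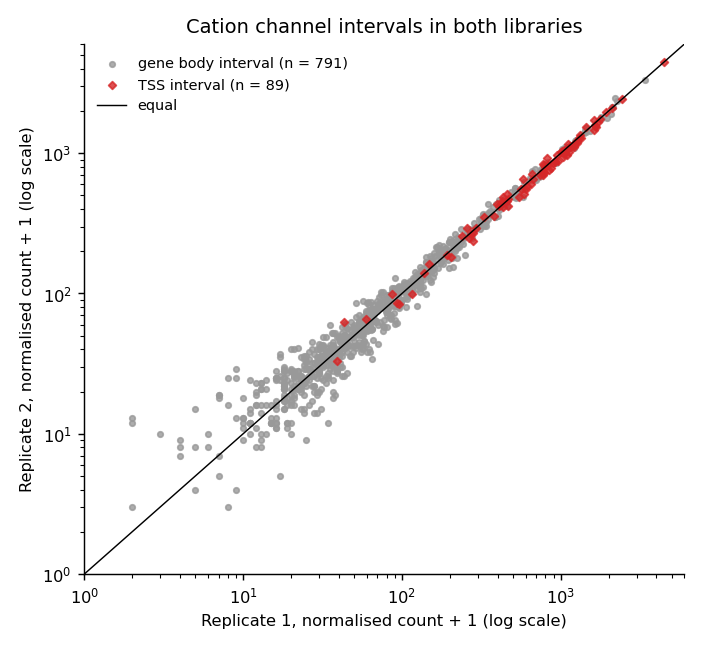
Normalised count plus 1 of each of the 880 channel intervals in replicate 2 (y axis, log scale) against replicate 1 (x axis, log scale), with diamonds for 89 TSS intervals, circles for 791 gene body intervals and a line of equal values. The points follow the line, and the scatter is widest among gene body intervals of low count.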

How the data were processed

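ATAC-seq was performed by the authors on live sorted cells. The deposited values are raw counts of fragments per consensus interval, in a table made with featureCounts 2.0.1 on read pairs. Per the file header, a fraction of at least 0.2 of a fragment had to overlap an interval, and 1 fragment could enter several. The study's methods describe alignment to mm10 and peak calling within nf-core atacseq 1.2.0. The interval set was built over 5 libraries, and 3 columns, which belong to no sample analysed here, were not used.

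Size factors of DESeq2 (1.42.0), and interval length in kb for densities, were divided out. Genes were those of GENCODE for mm10. A TSS interval overlapped the 5′ end of the gene, and a gene body interval overlapped the gene but no gene start. The limit of 100 for a mean normalised count follows the study's methods. The libraries were compared by a two-sided exact binomial test with Benjamini-Hochberg adjustment. The test was tried on simulated binomial counts, with changes planted only in intervals of high count. Its power in weaker intervals was not examined. Whether the replicates came from separate cultures was not given in the sources used here, so the SD measures the spread between 2 libraries, which may be technical. Fragments carry no molecular identifiers, and a test on counts covers counting error alone. Steps used R 4.3.3, Python 3.11.15, numpy 2.4.6, pandas 2.3.3, scipy 1.17.1 and matplotlib 3.10.9. Sequences came from RefSeq tables and the genome of GRCm38.p6.

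The channel genes, the comparison sets and the motifs were chosen with earlier results of these data known. The genes named were those with the highest and lowest promoter density in each family, the 10 highest promoters, the 10 densest gene body intervals (over the limit of 100), the 5 genes with most gene body intervals and the 5 with most per 100 kb among genes of at least 20 kb, the 3 largest differences between libraries and a list of 27 genes with known roles in spinal cord neurons or glia. Others were named where a count or a sequence match picked them out, after their values were seen. Alternatives covered the normalisation, the count limit, the definition of TSS and gene body intervals, counts per interval, the 3 Scnn1 genes as members, and leaving out each replicate. The Scnn1 genes were otherwise counted among the other cation channels. Crosslinked cells were not analysed here. The values of some genes that the naming rule picked are not reported here.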

Additional observations from a re-analysis of the deposited data

How the results depend on the processing

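The spread between the 2 libraries was small, so values that changed by more than 1 SD count as moved, and counts and rates by more than 1.5 times. The median promoter density of 481 became 760.01 counted per interval and 499 at the start of any protein-coding transcript. The ratio to all genes of 0.545 became 0.659 per interval, 0.576 within 1 kb and 0.585 at the start of any protein-coding transcript, and stayed under 1 in each. Without 1 replicate the density went from 475 to 487, the ratio from 0.53 to 0.56, the number of TSS intervals over 100 from 82 to 83 and the gene body density from 122 to 132. The rate of 4.79 gene body intervals per 100 kb became 1.55 for a mean normalised count over 100, where all genes had 1.80, an alternative that removes intervals by construction, and the density of 127 became 58.0 counted per interval. Elsewhere the cause of a change was not tested. The number of genes with a TSS interval went from 89 to 109 and of those over 100 from 78 to 103 over the alternatives. For single genes, normalisation by TMM or total counts moved none of the 89 promoter densities beyond the SD, leaving out 1 of 2 replicates cannot do so by construction, and using any transcript start moved 11. Of these, 5 moved over 1.5 times: Kcnn2 from 271 to 881, Cacna1e from 166 to 344, Scn1a from 496 to 264, Kcnip3 from 473 to 781 and Kcnip4 from 484 to 313. No paired analysis was possible because the samples formed 1 group. With a median of 65 and 66 counts per interval, single weak intervals such as those of Kcnn4 and Scn3a carry the largest counting error.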
